A study of Oryza sativa Japonica Group with 8 samples.

Results

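The 5 genes of the rice ALOG family described here were measured in young inflorescence meristems of an osg1l2 mutant and its wild type: OsG1L2 itself, OsG1L1, TAW1 (also called OsG1L5), G1 and OsG1L6. They were selected by their RAP gene identifiers, 5 of the 37859 identifiers in the deposited expression table, by a rule that uses no measured value, although results of these data were already known when the genes were proposed. OsG1L2 is Os06g0672400, on chromosome 6 by its identifier. OsG1L1 is Os02g0166800 and OsG1L6 is Os02g0811000, both on chromosome 2. TAW1 is Os10g0478000, on chromosome 10, and G1 is Os07g0139300, on chromosome 7. The deposited tables carry identifiers without names, and the pairing of name and identifier is the one given with the selection. The RefSeq gene table used as reference lists all 5 names on the chromosomes that the identifiers give, but does not hold the identifiers. Further family members in that table, OsG1L3, OsG1L4 and OsG1L9, were not analysed here.

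ALOG proteins, named after Arabidopsis LSH1 and Oryza G1, are plant-specific nuclear proteins with a conserved DNA-binding domain. In grasses they are known for setting when a meristem stops branching and starts making spikelets, and for the identity of the organs around the floret. TAW1 is known to hold rice branch meristems back from spikelet identity, so that a more active allele gives a more branched panicle. G1 is known to keep the sterile lemma from turning into a lemma, and OsG1L6 is known for its part in the shape of the lemma and palea. OsG1L1 and OsG1L2 are named in the title of the series as regulators of inflorescence branching.

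All plants were of the japonica cultivar Nipponbare, the cultivar of the rice reference genome. They grew in long days (16 h light at 28°C, 8 h dark at 26°C, 70% humidity) and were moved to short days (12 h light, 12 h dark) for 12 days to induce flowering. Meristems at early stages, enriched for those the labels abbreviate as PBMs and ePBM/Ams, were then dissected, and total RNA was sequenced from 4 wild type and 4 osg1l2 libraries. The labels call the mutant a single mutant and do not describe its allele or its number of lines. Whether the replicates came from separate plants or pools is not said beyond the word independent, so p-values cover only the spread among these 8 libraries, which may be technical. In such bulk tissue fewer cells of a type and less RNA per cell cannot be told apart.

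Values are FPKM, fragment abundance per gene model length and library size, as deposited by the authors. They sum to between 213940 and 231675 per library, and the sequencing depth is unknown. On a principal component analysis wild type replicate 2 stood apart on the second component, at -28.4 against 4.87 to 10.8 for the other wild type libraries. Of the 5 genes, 4 reached a mean of 1 FPKM over the 8 libraries and were tested among 18254 genes with limma on log2(FPKM + 1). G1 did not reach it.

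OsG1L2, the mutated gene, was lower in the osg1l2 libraries but was not absent from them. It was at 11.2, 9.66, 14.3 and 12.1 FPKM in wild type replicates 1 to 4 and at 6.12, 6.47, 5.06 and 5.73 FPKM in osg1l2 replicates 1 to 4. Every osg1l2 library lay below every wild type library, so the transcript followed the genotype labels in all 8. The mean of wild type was 11.8 FPKM ± 1.96 and that of osg1l2 5.84 FPKM ± 0.602 (SD, n = 4 each), so that 49.4% of the wild type mean remained. Single osg1l2 libraries kept between 42.8% and 54.7% of it, while single wild type libraries lay between 81.7% and 121.3%.

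OsG1L2 passed the test across all genes. The log2 fold change stood at -0.90 (standard error 0.11), with a 95% interval of -1.14 to -0.65 (limma, Benjamini-Hochberg adjusted p = 0.00298). With the 8 libraries permuted between genotypes, a two-sided exact test returned p = 0.0286, which is the lowest value 4 against 4 can reach. Of all tested genes 1.03% passed in this direction, and 7.69% had every osg1l2 value below every wild type value. The fall was large beside other falls: 27 of the 188 genes called lower fell further, and the median of these 188 was -0.44. Among all 18254 tested genes, called or not, 68 fell further. In the authors' deposited table OsG1L2 had a log2 fold change of -0.88 and q = 0.00241, and 1.14% of the entries of the authors' deposited table had a q under 0.05 in this direction.

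**Figure D1:**
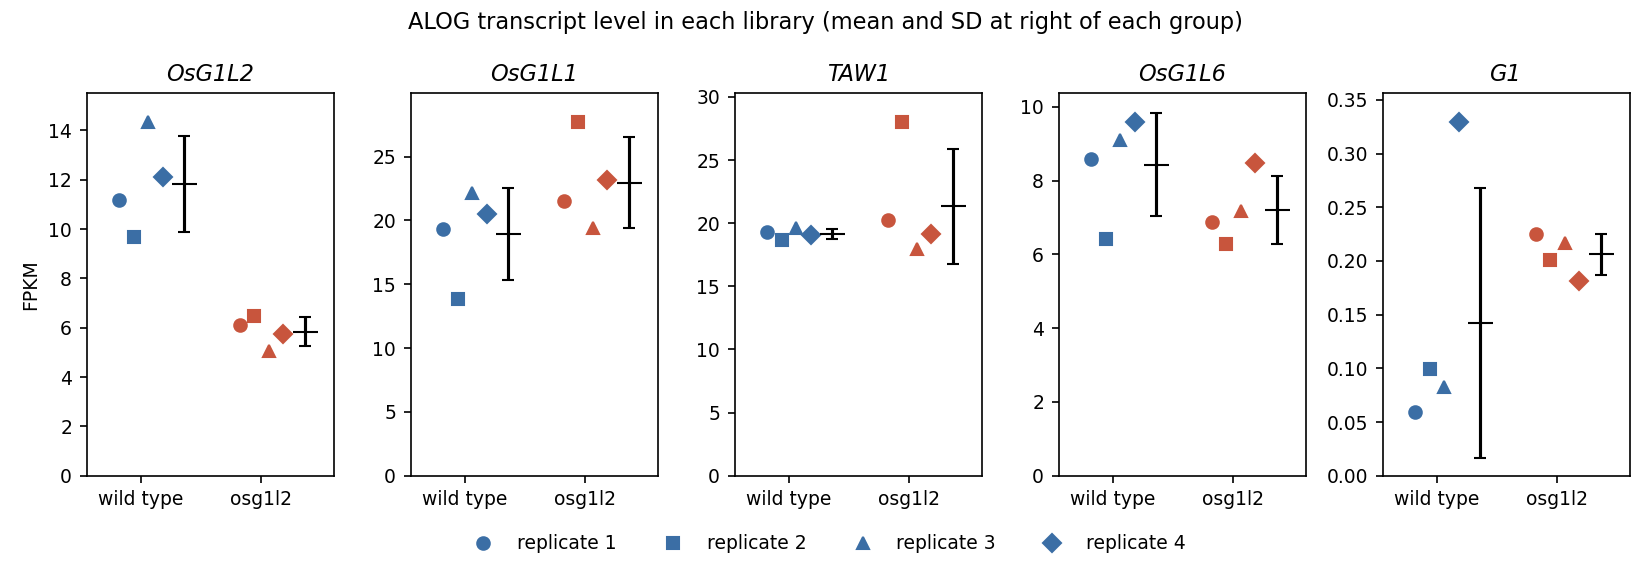
FPKM of each of the 5 ALOG genes (vertical axes, each starting at 0 with its own scale) in the 4 wild type and 4 osg1l2 libraries; marker shapes are replicate numbers, and the black bar is the mean with its SD. The 2 groups are apart for OsG1L2 (9.66 and above in wild type, 6.47 and below in osg1l2) and overlap for the other genes.

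The fall at OsG1L2 was not shared by the tested genes next to it. The 2 nearest tested identifiers on each side in RAP order had log2 fold changes between -0.25 and 0.09, and none passed the test, with limma adjusted p between 0.0982 and 0.900. These 4 genes spanned mean levels from 2.21 to 83.5 FPKM in wild type.

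OsG1L1, the family member named beside OsG1L2 in the title of the series, had a higher mean in osg1l2, and its groups overlapped. It was at 19.3, 13.9, 22.2 and 20.5 FPKM in wild type replicates 1 to 4 and at 21.5, 27.7, 19.4 and 23.2 FPKM in osg1l2 replicates 1 to 4. Wild type replicate 2 was the lowest of all 8 values and osg1l2 replicate 2 the highest, and only 2 osg1l2 libraries exceeded the highest wild type library. The means were 19.0 FPKM ± 3.60 (SD, n = 4) and 23.0 FPKM ± 3.53 (SD, n = 4).

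The difference at OsG1L1 did not pass the test on the FPKM values. Its log2 fold change was 0.27 with a 95% interval of -0.06 to 0.60 (limma adjusted p = 0.338), which spans no change and a rise to 1.52-fold. The exact permutation test gave p = 0.20 (two-sided). The authors' deposited table gave OsG1L1 a larger log2 fold change, 0.40, and q = 0.0411, which is past 0.05. A q under 0.05 in the higher direction was given to 0.880% of the entries of the authors' deposited table. The call for OsG1L1 therefore differed between the sources. The authors' log2 fold changes of OsG1L2, TAW1 and OsG1L6 were also higher than those on FPKM + 1. They were -0.88, 0.26 and -0.09 against -0.90, 0.13 and -0.20, while G1, near 0, went the other way. Without wild type replicate 2 the log2 fold change of OsG1L1 on the FPKM values was 0.14 (limma adjusted p = 0.472), and without osg1l2 replicate 2 it was 0.18 (limma adjusted p = 0.518). With both left out, a choice made after seeing the data, it was 0.05 (limma adjusted p = 0.750).

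TAW1, the member with the best known role in branching, was the steadiest of the 5 in wild type. It was at 19.3, 18.7, 19.6 and 19.1 FPKM in wild type replicates 1 to 4, a coefficient of variation of 2.05%, and only 2.13% of tested genes varied less between the wild type libraries. In osg1l2 it was at 20.2, 28.0, 17.9 and 19.1 FPKM in replicates 1 to 4, a coefficient of variation of 21.4%. Replicate 4 lay inside the wild type range, replicates 1 and 3 just outside it on either side, and replicate 2 far above it. Whether the spread itself differed between the genotypes was not tested.

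The mean of TAW1 in wild type was 19.2 FPKM ± 0.393, and in osg1l2 it was 21.3 FPKM ± 4.56 (SD, n = 4 each). The log2 fold change was 0.13 with a 95% interval of -0.14 to 0.39 and did not pass the test (limma adjusted p = 0.590). An exact permutation test gave p = 0.571 (two-sided). Osg1l2 replicate 2 alone set the sign: without it the log2 fold change came to -0.01 ± 0.05 (standard error). In the authors' deposited table TAW1 had a log2 fold change of 0.26 and q = 0.0942.

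**Figure D2:**
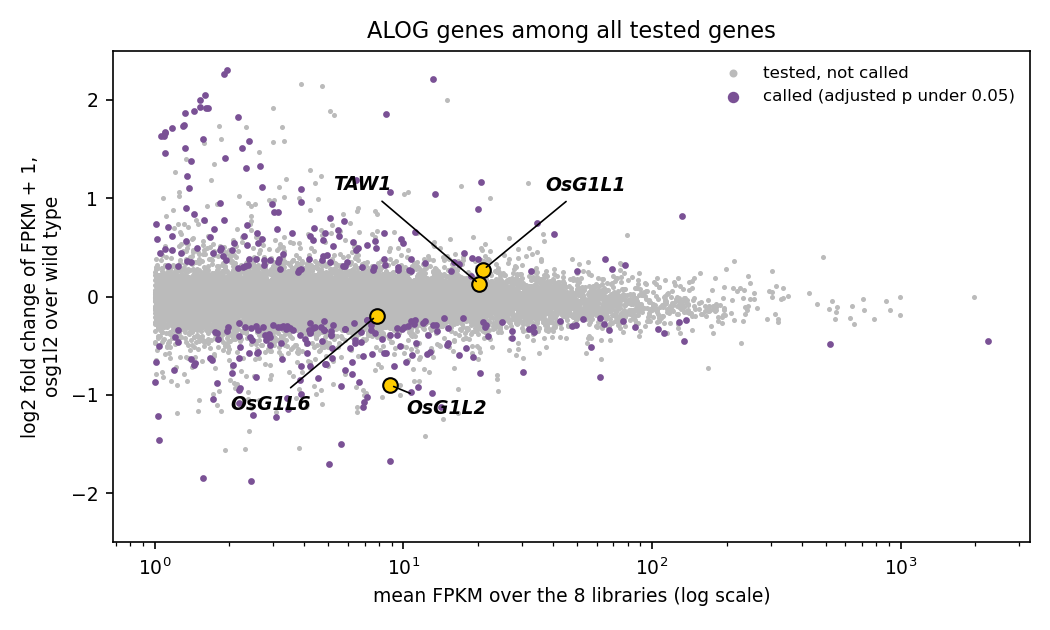
Log2 fold change of FPKM + 1, osg1l2 over wild type, against mean FPKM over the 8 libraries (log axis) for 18254 tested genes; purple points passed an adjusted p under 0.05, yellow points are the 4 tested ALOG genes, and 22 genes beyond 2.5 on the vertical axis are not drawn. OsG1L2, at -0.90, lies below the cloud, and OsG1L1, TAW1 and OsG1L6 lie at 0.27, 0.13 and -0.20.

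OsG1L6, a regulator of lemma and palea, had a lower mean in osg1l2, with overlapping groups. It was at 8.60, 6.43, 9.11 and 9.60 FPKM in wild type replicates 1 to 4 and at 6.88, 6.29, 7.17 and 8.47 FPKM in osg1l2 replicates 1 to 4. Wild type replicate 2 sat among the osg1l2 values, and 3 of the 4 osg1l2 libraries were below the wild type mean. The means were 8.44 FPKM ± 1.40 (SD, n = 4) and 7.20 FPKM ± 0.921 (SD, n = 4). The log2 fold change of -0.20, with a 95% interval of -0.46 to 0.07, did not pass the test (limma adjusted p = 0.401), and the exact permutation test gave p = 0.20 (two-sided). Without wild type replicate 2 it was -0.31 (limma adjusted p = 0.0837). The authors' deposited table gave -0.09 and q = 0.876.

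G1, the founding member of the family in rice, was close to 0 in both genotypes at these early stages. It was at 0.0593, 0.0991, 0.0824 and 0.330 FPKM in wild type replicates 1 to 4 and at 0.225, 0.201, 0.217 and 0.181 FPKM in osg1l2 replicates 1 to 4. Wild type replicates 1 to 3 were below all osg1l2 libraries and wild type replicate 4 was above them. With the depth unknown it cannot be said how many fragments lie behind such values, and the gene was not in the main test. When genes of every level were tested its log2 fold change was 0.08, with a 95% interval of -0.08 to 0.25 (limma adjusted p = 0.643). The authors' deposited table gave -0.02 and q = 1.0.

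Of the 4 tested ALOG genes, 1 was called lower, 0 higher and 3 were not called, beside 1.93% of all tested genes called in either direction and 0.898% called higher. Their median log2 fold change was -0.03, against -0.04 for all tested genes. OsG1L2 and OsG1L1, 2 of the 5, had a q under 0.05 in the authors' deposited table, in opposite directions, where 2.02% of all entries did.

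**Figure D3:**
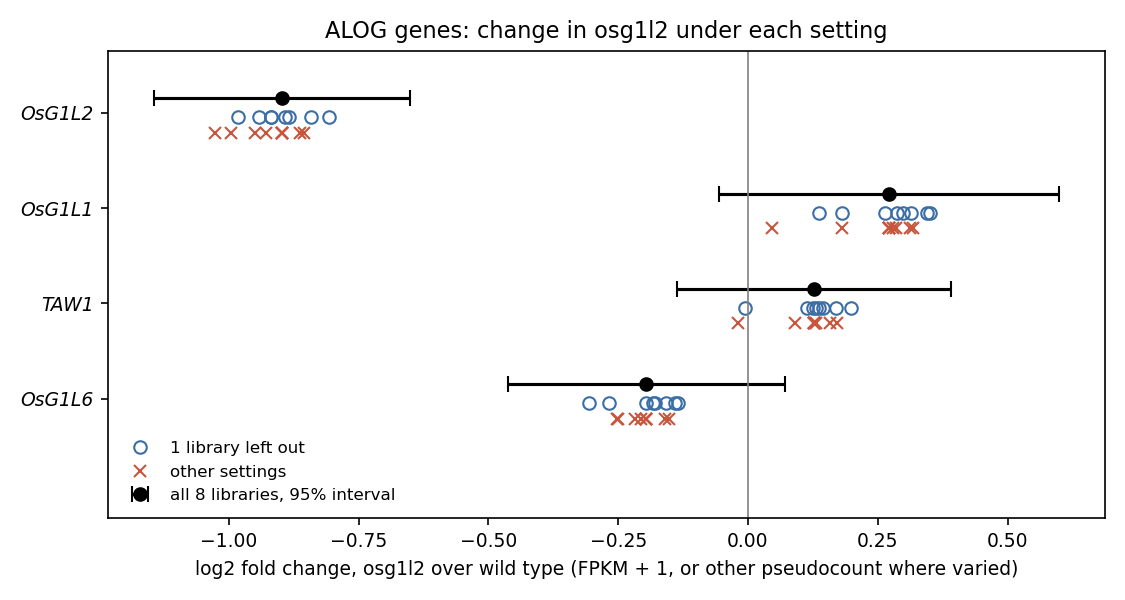
Log2 fold change of the 4 tested ALOG genes, osg1l2 over wild type: black points are the fit with 8 libraries and its 95% interval, open circles the fits with 1 library left out, and crosses the other settings. Every value for OsG1L2 lies at -0.81 or below, while the intervals of OsG1L1, TAW1 and OsG1L6 include 0.

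FPKM is a value per length, so the 5 genes can be ordered by level. In wild type OsG1L1 and TAW1 were the most abundant, at means of 19.0 and 19.2 FPKM. Their order changed between libraries, so the FPKM values did not rank one above the other. In the authors' deposited table, whose unit is not named, TAW1 was above OsG1L1 in both genotypes. The values there were 59.0 against 43.0 in wild type and 70.5 against 56.6 in osg1l2. Whether those values are per length is not stated, so they cannot rank TAW1 above OsG1L1. OsG1L2, at 11.8 FPKM, was below both in every wild type library and above OsG1L6, at 8.44 FPKM, in every wild type library. G1 was lowest in all 8 libraries. In osg1l2 the middle of this order changed: OsG1L2, at 5.84 FPKM, was below OsG1L6, at 7.20 FPKM, in 3 of 4 libraries and just above it in replicate 2. Among the tested genes OsG1L1 and TAW1 stood at the 88.4 and 87.9 percentiles of mean level over the 8 libraries, OsG1L2 at 68.3 and OsG1L6 at 64.3.

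The ALOG genes were also compared with each other within a library, as the log2 ratio of their FPKM + 1. The added 1 leaves some dependence on scaling, and in the pairs with G1, which is near 0, the ratio is close to the level of the other gene alone. All 10 pairs were compared between the genotypes with a two-sided exact permutation test. In 5 pairs the groups did not overlap (exact p = 0.0286, the smallest possible, and 0.0571 after adjustment over the 10 pairs). Taken singly, 11.8% of all tested genes also had groups that did not overlap in either direction, OsG1L2 among them. No pair passed 0.05 after adjustment, and with 5 pairs at the smallest p none could. Pairs share genes, so the 10 tests are not independent.

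Of these 5 pairs, 4 were those of OsG1L2 with each other member. OsG1L2 also separated from 94.2% of all other tested genes in this way, so these 4 pairs show the fall of OsG1L2 again and nothing particular to the family. The log2 ratio of OsG1L2 to OsG1L1 was -0.63 ± 0.12 (SD, n = 4) in wild type and -1.80 ± 0.12 (SD, n = 4) in osg1l2. The ratio of OsG1L2 to OsG1L6 changed sides, from 0.44 ± 0.14 to -0.26 ± 0.25 (SD, n = 4 each). The other pair without overlap was OsG1L1 to OsG1L6, the gene of the title against the lemma and palea regulator. Its log2 ratio was between 0.999 and 1.20 in the wild type libraries and between 1.32 and 1.98 in the osg1l2 libraries. The ratio of OsG1L1 to 19.4% of all other tested genes separated likewise, and neither OsG1L1 nor OsG1L6 passed the test by itself. The 2 most abundant members did not separate: the log2 ratio of OsG1L1 to TAW1 was -0.03 ± 0.26 in wild type and 0.11 ± 0.12 in osg1l2 (SD, n = 4 each, exact permutation p = 0.457).

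**Figure D4:**
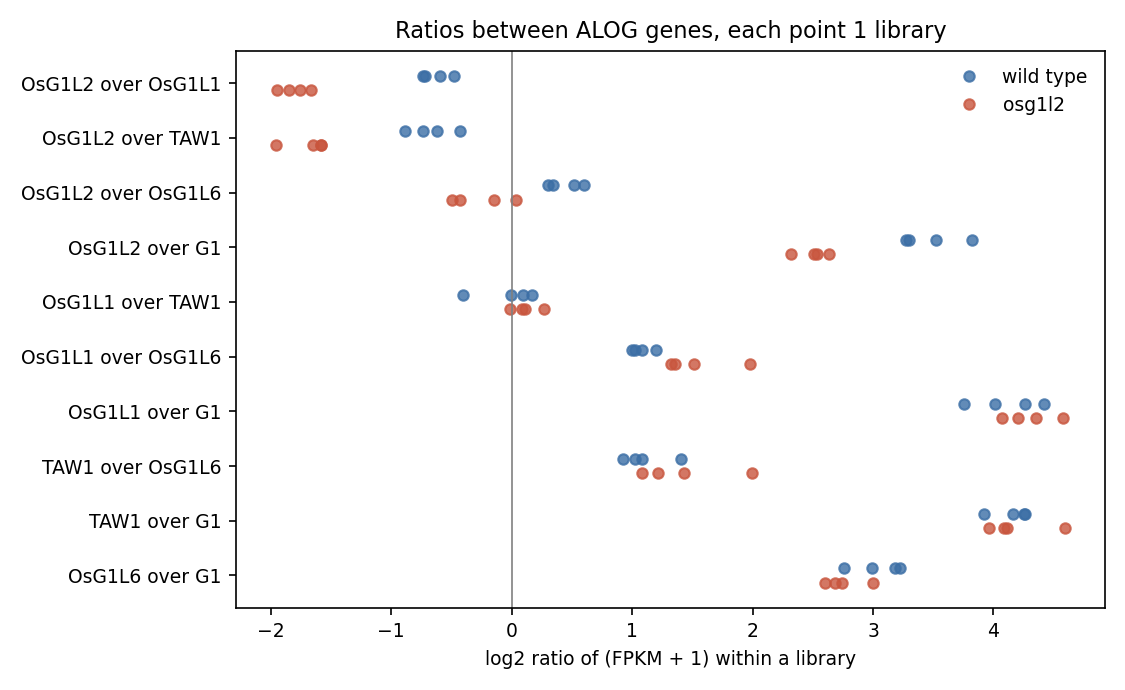
Log2 ratio of (FPKM + 1) between members of each of the 10 ALOG pairs, with wild type libraries in blue and osg1l2 libraries in red, each point 1 library. The 4 ratios with OsG1L2 on top and OsG1L1 over OsG1L6 show no overlap between the colours.

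The summed level of the 5 genes overlapped between the genotypes. It was 58.5, 48.7, 65.3 and 61.6 FPKM in wild type replicates 1 to 4 and 55.0, 68.7, 49.8 and 56.7 FPKM in osg1l2 replicates 1 to 4. The means were 58.5 FPKM ± 7.12 and 57.6 FPKM ± 8.00 (SD, n = 4 each), a difference smaller than either SD. Without OsG1L2 the other genes summed to 46.7 FPKM ± 5.33 in wild type and 51.7 FPKM ± 7.48 in osg1l2 (SD, n = 4 each), again with overlapping groups. Within the sum the share of OsG1L2 was 20.1% ± 1.25 in wild type and 10.2% ± 0.703 in osg1l2, and that of OsG1L1 was 32.2% ± 2.52 and 39.8% ± 0.937 (SD, n = 4 each). Shares add to the whole, so a lower share of one gene raises those of the others.

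**Figure D5:**
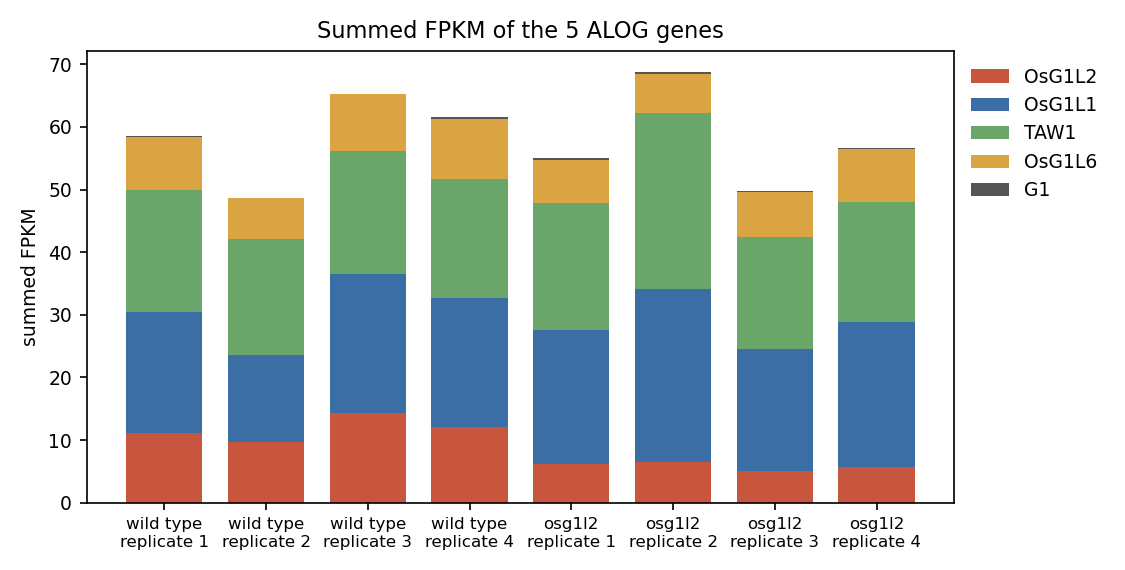
Stacked FPKM of the 5 ALOG genes in each library, from an axis that starts at 0. The column heights run from 48.7 in wild type replicate 2 to 68.7 in osg1l2 replicate 2, and the red segment of OsG1L2 is shorter in every osg1l2 library.

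Within a genotype, the same libraries were extreme for several members. All 4 expressed members had their lowest wild type value in replicate 2, the library that stood apart on the second principal component. That library also had the lowest summed FPKM over all genes of the wild type libraries, 218558. For TAW1 the gap was small, 18.7 FPKM against 19.1 to 19.6 FPKM, and it did not outlast rescaling of the libraries. The median-of-ratios size factors were 1.024, 0.993, 1.05 and 1.016 for wild type replicates 1 to 4. Divided by these, TAW1 was lowest in wild type replicate 3 and no longer in replicate 2. In osg1l2, OsG1L2, OsG1L1 and TAW1 all had their highest value in replicate 2 and their lowest in replicate 3, while OsG1L6 had its lowest in replicate 2. On values centred on each gene's mean, OsG1L1 and TAW1 differed by a root mean square of 0.19 on the log2 scale over 8 libraries. By that measure 3.48% of tested genes were nearer to OsG1L1 than TAW1 was. TAW1 lay 0.18 from its own mean, so a flat profile was no further from it than OsG1L1. OsG1L2 and OsG1L1 differed by 0.59, and 93.4% of tested genes were nearer to OsG1L2 than OsG1L1 was. OsG1L2 and TAW1 differed by 0.54 (84.7% nearer to OsG1L2), and OsG1L2 and OsG1L6 by 0.39 (11.3% nearer). OsG1L2 fell in osg1l2, so its distances to genes without such a fall largely repeat that fall. OsG1L6 was at 0.30 from OsG1L1 (70.7% nearer to OsG1L1) and at 0.32 from TAW1 (90.8% nearer to TAW1).

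By the same measure, the tested gene nearest to OsG1L2 was Os12g0100100, at a root mean square difference of 0.12 over 8 libraries, where the median tested gene was at 0.47. It was at 7.10, 7.36, 7.85 and 8.30 FPKM in wild type replicates 1 to 4 and at 3.47, 3.97, 3.22 and 3.79 FPKM in osg1l2. Its log2 fold change was -0.91. The gene nearest to TAW1 was Os12g0164300, at 0.06, with 4.18, 3.87, 3.86 and 4.30 FPKM in wild type and 4.58, 6.22, 3.76 and 4.43 FPKM in osg1l2, so it too was highest in osg1l2 replicate 2. Each was picked as the nearest of all tested genes, so its values are a description. The files do not annotate either.

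A pair of lists of RAP identifiers from the same developmental pathway was examined as counts. Their identifiers were entered from general knowledge, with earlier results of these data known, and neither the tables nor the reference pair them with names, so membership is unverified. Among 3 identifiers listed as MADS-box genes of the SVP clade, reported to act below TAW1 in rice, 0 of 3 passed the limma test and 0 had an unadjusted p under 0.05, with log2 fold changes between -0.06 and 0.16. Among 16 identifiers listed as panicle branching and meristem phase regulators, 11 were tested, 0 were called higher and 1 lower, where 0.898% and 1.03% of all tested genes were called. Their median log2 fold change was -0.20, and 6 of the 11 had an unadjusted p under 0.05, as did 19.5% of all tested genes. The 1 called gene was Os11g0152500, named here after its values were seen. It was at 16.5, 21.3, 12.0 and 11.8 FPKM in wild type replicates 1 to 4 and at 8.19, 5.97, 7.52 and 8.38 FPKM in osg1l2 (log2 fold change -0.92, limma adjusted p = 0.0376). All 4 osg1l2 libraries were below the wild type libraries.

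The ALOG genes also differed between the deposited tables in level. The wild type value of the authors' deposited table, whose unit is not named, was 2.88 times the mean wild type FPKM for OsG1L2, 2.27 times for OsG1L1, 3.08 times for TAW1 and 2.66 times for OsG1L6. For all tested genes the median of this factor was 1.63. Between 83.1% and 94.4% of tested genes had a smaller factor than each of these 4. In osg1l2 the factors of these 4 genes were each higher, at 3.165, 2.465, 3.302 and 2.934 in the same order. That of G1, near 0, was lower in osg1l2 (3.544 against 5.199 in wild type). The scales of the 2 tables therefore differed by gene and genotype, and their levels were not combined.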

How the data were processed

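The authors deposited an FPKM table with 1 value per gene and library and a second table of their own comparison, with a value for each genotype, the log2 fold change and its q-value. Per the file headers that table names no unit for its genotype values, so these deposited values were treated as a score, as was the fold change column, which holds a placeholder where 1 genotype is 0. Per the submitters' processing notes, the genome build was IRGSP-1.0. Aligner, quantification program and strand setting: not given in the sources used here. Antisense reads therefore cannot be told apart.

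Genes averaging 1 FPKM or more across the 8 libraries entered a test with limma 3.58.1 in R 4.3.3 on log2(FPKM + 1), with an intensity trend, two-sided tests and Benjamini-Hochberg adjustment over all 18254 genes, called under 0.05. Fold changes are on that scale, which understates changes of low genes. No count test was run, since the values are FPKM estimates. Permutation tests and tables used Python 3.11.15, scipy 1.17.1, numpy 2.4.6 and pandas 2.3.3, and figures matplotlib 3.10.9.

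Named were the 5 members, the tested genes nearest to OsG1L2 and TAW1, and counts of 2 lists. The members, by identifier, and the lists were chosen with earlier results of these data known. The shares of other tested genes whose ratio to a member separated were added after seeing the data. The alternatives were other pseudocounts, filters, scalings, a replicate block, library weights, a robust prior and leaving out each library. The RefSeq gene table (ASM3414082v1) was used for names and chromosomes, and 1 of 37859 identifiers was in it. Marker lists were not used and the labelled tissue was not checked, because their identifiers are not annotated there. Sequences of the members were not used here.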

Additional observations from a re-analysis of the deposited data

Results flagged for a closer look

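G1 in wild type replicate 4, at 0.330 FPKM, lay far from the other wild type libraries, at 0.0593 to 0.0991 FPKM. The distance to its nearest neighbour took up 0.853 of the range of the 4 values, more than Dixon's 95% critical value for 4 samples. It was 1 of 32 groups of 4 values examined, and chance flags about 1 in 20. The groups share genes and libraries, and G1 is near 0 in all 8 libraries.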

How the results depend on the processing

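OsG1L2 stayed lower and past the threshold in every planned setting and library left out, with log2 fold changes from -0.996 to -0.81 and limma adjusted p from 0.000662 to 0.0387, the latter with the replicate block. OsG1L1 (0.14 to 0.35, without 1 library) and OsG1L6 (-0.31 to -0.14, without 1 library) kept their direction and did not pass in any planned setting, with adjusted p of 0.241 or more and 0.0837 or more. TAW1 ranged from -0.01 to 0.20 without 1 library. It turned to -0.0063 without osg1l2 replicate 2 and to -0.019 with both replicates numbered 2 left out, a choice made after seeing the data. G1 was at 0.05 to 0.16 without 1 library and moved to 0.45 at a pseudocount of 0.1. The count of 352 called genes became 153 with a mean of at least 5 FPKM (fewer genes tested), 152 with the replicate block, 1097 with library quality weights, 157 to 831 without 1 library and 791 without both replicates numbered 2; the cause was not tested for the others. Median-of-ratios rescaling moved the split from 164 higher and 188 lower to 220 and 135, quantile normalization to 210 and 130. The numbers of the replicates gave little sign of pairs: deviations of same-numbered libraries correlated at 0.069, -0.017, -0.091 and -0.12. Such correlations cannot settle whether same-numbered libraries were paired for single genes. The replicate block was therefore kept as an alternative only, and it changed no call of an ALOG gene. The 5 separated pairs became 5 to 6 without 1 library. The log2 ratio of OsG1L1 to G1 turned from 0.19 to -0.17 at a pseudocount of 0.1. That of TAW1 to G1 turned from 0.04 to -0.32 and -0.025 at pseudocounts of 0.1 and 0.5, to -0.034 without wild type replicate 4 and to -0.093 without osg1l2 replicate 2 (-0.093 to 0.12 without 1 library). The summed level differed by -0.98 FPKM, and by -4.70 to 1.597 without 1 library. The authors' deposited table gave 760 entries at q under 0.05 and 536 under 0.01. With no depth given, its limits on these values cannot be stated.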
